A study of Mus musculus with 38 samples.

Results

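Mouse skin was examined for 10 genes that adipocytes express: Adipoq, Lep, Cfd, Plin1, Cidec, Adrb3, Aqp7, Gpd1, Pck1 and Pcx. They were taken by gene name from the 49585 genes listed in each of 4 tables of normalised counts, and all 10 were present once in every table. Adrb3 and Pcx were also found in sorted reporter-positive cells, as given below, so not every member follows fat cells alone. RNA had been sequenced from mouse back skin after deletion of Srsf2, which encodes a splicing factor of the SR family, or after its change to the P95H form. Back skin is a bulk tissue, so fewer cells of a type and less RNA of a gene per cell cannot be told apart, and the cells that a member's RNA came from were not measured in whole skin.

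The whole-skin knockout experiment held 3 control mice and 3 SRSF2-KO mice at each of 4, 10 and 12 days. Both kinds carry the SRSF2 KO allele per the labels, and all received 4-hydroxytamoxifen on the back skin every other day. Controls were Cre negative and SRSF2-KO mice Cre positive for Krt14-CreER, a recombinase made where keratin 14 is expressed, mainly in the basal epidermis and its appendages, so fat cells are not the cells in which this promoter is known to act. Mice of this experiment carried none, 1 or both tdTomato reporter alleles, in mixed numbers within the groups. Of the controls, replicates 1 and 2 had been treated for 12 days and replicate 3 for 10 days. No control had been treated for 4 days, so in 4-day comparisons with controls Cre status and length of treatment cannot be told apart. The whole-skin P95H experiment held 5 Cre-negative controls and 2 Cre-positive SRSF2-P95H mice at 12 days, and 3 controls and 4 SRSF2-P95H mice at 28 days, all labelled SRSF2 MUT, tdTomato wild type and given the same drug. Reporter-positive cells had been sorted from the back skin of 3 control and 3 SRSF2-KO mice at 10 days, and of 3 control and 3 SRSF2-P95H-het mice 20 weeks into DMBA/TPA, a mutagen with a tumour promoter, after 3 tamoxifen injections. Neither the Cre status of the sorted controls nor the ages of the mice were stated in the labels used here.

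Skin has its own fat layer, the dermal white adipose tissue, which lies under the dermis and around the lower hair follicles. It stores triglyceride in a single large droplet per cell, releases fatty acids and glycerol on adrenergic stimulation, and secretes hormones. In mouse back skin the layer is known to thicken while hair grows and to thin while hair rests.

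The members cover the functions of a mature fat cell. Adipoq (adiponectin), Lep (leptin) and Cfd (complement factor D, adipsin) are secreted, Plin1 (perilipin 1) coats the lipid droplet and Cidec drives droplet fusion. Adrb3 is the adrenergic receptor that starts lipolysis, and Aqp7 is the channel through which glycerol leaves. Gpd1 makes glycerol 3-phosphate from a glycolytic intermediate, and Pck1 supplies the same backbone by glyceroneogenesis. Pcx, pyruvate carboxylase, makes oxaloacetate in mitochondria.

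Promoters of the members were read from RefSeq (GRCm38.p6), each 300 bases long with all but the last 50 ahead of a start site, and 8 of the 10 members had 11 of them. The following 4 are shown because they hold letters of motifs that fat-cell regulators bind, in members whose levels are described below. Capitals mark TTGCNNAA or its reverse complement, a form of the site bound by C/EBP factors, in the first 3, and AGGTCA on the reverse strand (TGACCT), the hexamer that nuclear receptors such as PPAR gamma recognise, in Aqp7. Plin1 lies at chr7:79732727-79733026 on the minus strand, Lep at chr6:29059971-29060270 on the plus strand, Cidec start site 1 at chr6:113434715-113435014 on the minus strand and Aqp7 start site 1 at chr4:41047913-41048212 on the minus strand.
Plin1: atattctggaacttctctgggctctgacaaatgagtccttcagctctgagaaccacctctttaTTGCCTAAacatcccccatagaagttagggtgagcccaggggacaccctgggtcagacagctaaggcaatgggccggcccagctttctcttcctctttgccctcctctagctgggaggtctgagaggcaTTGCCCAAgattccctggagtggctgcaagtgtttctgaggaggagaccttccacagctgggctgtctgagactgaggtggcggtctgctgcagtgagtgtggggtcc
Lep: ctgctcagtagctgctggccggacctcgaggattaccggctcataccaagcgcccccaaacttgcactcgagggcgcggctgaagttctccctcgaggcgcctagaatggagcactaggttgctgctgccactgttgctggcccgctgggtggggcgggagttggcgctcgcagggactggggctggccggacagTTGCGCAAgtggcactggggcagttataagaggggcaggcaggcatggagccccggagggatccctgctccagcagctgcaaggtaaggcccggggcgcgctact
Cidec: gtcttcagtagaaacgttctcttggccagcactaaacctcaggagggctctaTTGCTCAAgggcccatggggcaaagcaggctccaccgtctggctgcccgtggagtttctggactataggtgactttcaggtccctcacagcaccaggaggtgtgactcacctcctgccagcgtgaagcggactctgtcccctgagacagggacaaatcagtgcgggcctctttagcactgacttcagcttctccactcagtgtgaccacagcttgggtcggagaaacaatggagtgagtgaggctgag
Aqp7: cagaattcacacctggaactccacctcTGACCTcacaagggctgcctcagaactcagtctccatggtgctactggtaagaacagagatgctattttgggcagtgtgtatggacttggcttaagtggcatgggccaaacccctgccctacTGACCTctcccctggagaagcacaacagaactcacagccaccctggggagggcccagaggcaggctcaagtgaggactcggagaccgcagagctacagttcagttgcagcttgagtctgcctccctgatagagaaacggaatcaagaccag
The Lep match, TTGCGCAA, starts at -55 from the start site and reads the same on both strands. Plin1 held 2 matches, starting at -187 and -58, and Cidec 1, starting at -198. The first start site of Aqp7 held the hexamer 2 times, starting at -223 and -101. Both strands of all 32851 promoters of this table were searched: 10.8% held TTGCNNAA and 16.3% held AGGTCA, so neither match sets these promoters apart. Neither TATAAA, present in 13.6% of promoters, nor a direct repeat of AGGTCA with 1 base between, present in 0.0396%, occurred in a member's promoter. The windows of Adipoq, Cfd and Pck1 held none of these 4 motifs.

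Levels of whole skin are given in steps, the unit of which each library's deposited values are whole multiples, and changes as log2 of steps plus 1. Totals were 28.5 to 37.5 M steps per library (M, 1000000) in the knockout experiment and 16.1 to 17.4 M in the P95H experiment. Sorted libraries held 45.9 to 92.8 M reads at 10 days and 10.98 to 17.2 M after DMBA/TPA. All 10 members passed the filter, a mean of at least 10, in both skin tables. A call is an adjusted p under 0.05 in limma's moderated test over all genes. Srsf2, the targeted gene, stood at 2879 to 2996 steps in control skin, 2450 to 2790 at 4 days, 2996 to 3687 at 10 days and 2303 to 2559 at 12 days. The 10-day skin libraries labelled knockout were thus not below controls for Srsf2, and they are named by that label throughout. Limma called no Srsf2 change against control skin, with -0.15 at 4 days (limma adjusted p = 0.369), 0.15 at 10 days (0.286) and -0.28 at 12 days (0.164). In sorted cells Srsf2 fell by 2.71 ± 0.27 on the log2 scale (SE, 3 against 3 mice, limma adjusted p = 0.0430), from 17560 to 20595 normalised counts in controls to 1900 to 3659.

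Control skin held all 10 members, at levels that differed between genes. Per 1000000 steps and kilobase of exon, Cfd stood at 399 ± 300 (SD, n = 3), Adipoq at 71.4 ± 53.9 and Cidec at 56.5 ± 41.5. The middle of the order was Pcx at 36.1 ± 2.07, Lep at 32.8 ± 28.9, Pck1 at 31.4 ± 23.5, Gpd1 at 30.6 ± 0.470 and Plin1 at 25.1 ± 15.6. Aqp7 followed at 9.46 ± 2.76 and Adrb3 was lowest at 3.50 ± 0.370. Adrb3 was the only member whose controls lay below all controls of its neighbour in this order, and every other pair of neighbours overlapped.

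The 3 control mice differed widely in 6 members and hardly in 3. Adipoq, the fat-cell hormone adiponectin, read 805, 5065 and 2670 steps in control replicates 1, 2 and 3. Lep, the satiety hormone, read 768, 6228 and 2534 steps. Replicate 1 was the lowest and replicate 2 the highest for Adipoq, Lep, Cfd, Plin1, Cidec and Pck1, with ratios of highest to lowest (each plus 1 step) from 4.66 to 8.10. Those ratios exceeded the ones of 97.9% to 98.8% of the 19450 genes tested, whose median was 1.34. For Gpd1 the controls read 2710, 2661 and 2549 steps, for Pcx 4979, 5278 and 4727, and for Adrb3 320, 379 and 335. The ratios of these 3 were 1.06, 1.12 and 1.18, and Aqp7 lay between at 1.70. The split into 6, 1 and 3 members was made after these values were seen and is used only to describe.

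**Figure D1:**
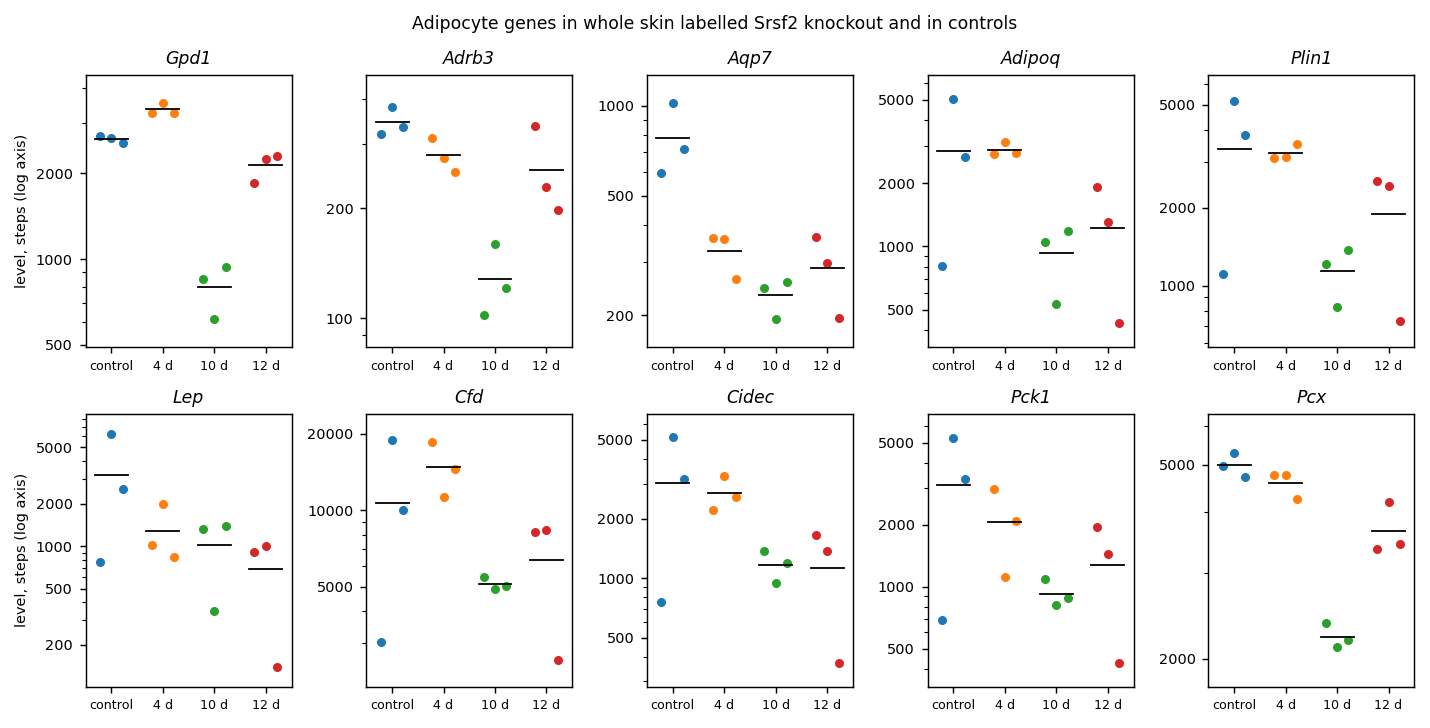
Level of each member in steps (log axis) in the 12 whole-skin libraries of the knockout experiment, by group, with replicates 1 to 3 from left to right as points and a bar at the group mean. Gpd1, Pcx and Adrb3 have tight controls and low values at 10 days, whereas the controls of Adipoq run from 805 to 5065 steps.

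At 10 days skin labelled knockout held less Gpd1, Pcx, Adrb3 and Aqp7 RNA than control skin. These 4 of the 10 members fell and none rose, where 25.3% of all genes tested were called in either direction and 11.9% fell. The same 4 members did not overlap between the groups, as did 43.1% of all genes. Changes of all 10 members were below 0, with a median of -1.34 on the log2 scale against -0.02 over all genes tested. Rescaling every library to the same total, which shifts all genes of a library alike, moved the median of all genes to -0.34 and the members' median to -1.66, and the deposited values gave 0.25 and -1.06. Control samples are shared by the comparisons at 4, 10 and 12 days.

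Gpd1, the glycerol 3-phosphate enzyme, read 854, 614 and 934 steps at 10 days. All 3 libraries lay below a control range of 2549 to 2710 steps, and the mean was 801 ± 167 (SD, n = 3) against 2640 ± 82.5. Its change was -1.74 ± 0.15 (SE), a 3.35-fold lower level (limma adjusted p = 0.000330). Pcx, the pyruvate carboxylase gene, read 2363, 2110 and 2190 steps, a mean of 2221 ± 129 against 4995 ± 276 (SD, n = 3 each). The groups did not overlap, and Pcx fell by 1.17 ± 0.11 (SE), or 2.25-fold (limma adjusted p = 0.000542).

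Adrb3, the lipolytic receptor, read 102, 160 and 121 steps against 320 to 379 in controls. The groups did not overlap, and the receptor fell by 1.45 ± 0.21 (SE), or 2.73-fold (limma adjusted p = 0.00321). Aqp7, the glycerol channel, read 247, 195 and 259 steps against 598 to 1018 in controls. Again no library of one group reached the other, and Aqp7 fell by 1.71 ± 0.25 (SE), or 3.26-fold (limma adjusted p = 0.00328).

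The secreted factors and droplet proteins did not pass at 10 days, and control replicate 1 lay among or below the 10-day libraries for all of them and for Pck1. Adipoq read 1054, 532 and 1190 steps, and its change was -1.34 ± 0.65 (SE, limma adjusted p = 0.147). Lep read 1314, 349 and 1396 steps with a change of -1.41 ± 0.88 (adjusted p = 0.261), and Cfd 5430, 4875 and 5028 steps with -0.70 ± 0.59 (adjusted p = 0.409). All 3 had 10-day libraries inside the control range. Plin1 read 1215, 823 and 1371 steps (-1.33 ± 0.56, adjusted p = 0.100), and Cidec 1373, 948 and 1191 steps (-0.997 ± 0.66, adjusted p = 0.286). Pck1, the glyceroneogenic enzyme, read 1086, 813 and 876 steps (-1.32 ± 0.72, adjusted p = 0.195). Without control replicate 1, Adipoq, Plin1, Cidec and Pck1 passed as well, with changes of -2.07, -2.0, -1.80 and -2.19, and 8 of the 10 members were called. The share of all genes called in that fit is not given here.

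Aqp7 was the one member called at every time point. At 4 days it read 363, 358 and 265 steps, below all controls, and fell by 1.22 ± 0.25 (SE, limma adjusted p = 0.0141), where 11.3% of all genes tested were called and 4.12% fell. Gpd1, Adrb3 and Aqp7 did not overlap between 4-day and control skin, as did 29.4% of genes. At 12 days it read 365, 299 and 196 steps, again below all controls, and fell by 1.45 ± 0.25 (adjusted p = 0.0250), where 1.28% of genes were called and 0.458% fell. Aqp7, Gpd1 and Pcx did not overlap there, as did 22.6% of genes. Its calls were less firm than the sizes. The 4-day call was lost without 4-day replicate 3 (adjusted p = 0.0747). The 12-day call was lost without control replicate 2 (0.0738), control replicate 3 (0.0833), 12-day replicate 2 (0.0512) or 12-day replicate 3 (0.0840), and with the 2 groups fitted alone (0.0716), at changes of -1.07 to -1.50 in all these fits.

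The other 9 members did not pass at 4 or 12 days, except that Pcx passed at 12 days without 12-day replicate 2 (-0.56, limma adjusted p = 0.0455). Gpd1 at 4 days read 3265, 3544 and 3267 steps, above all controls, with a change of 0.35 ± 0.15 (SE, limma adjusted p = 0.150). Adipoq at 4 days read 2753, 3126 and 2781 steps, inside the control range, and Cfd 18498, 11252 and 14570. At 12 days replicate 3 held the lowest level of all 12 libraries for 6 members, with 429 steps of Adipoq, 140 of Lep and 370 of Cidec. Its companions read 1918 and 1313 steps of Adipoq and 911 and 1000 of Lep. Gpd1 in the same library read 2294 steps, the highest of the 12-day group, so the library that was low for the secreted factors was not low for Gpd1. The largest change at 12 days was that of Lep, -2.19 ± 0.88 (adjusted p = 0.204).

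**Figure D2:**
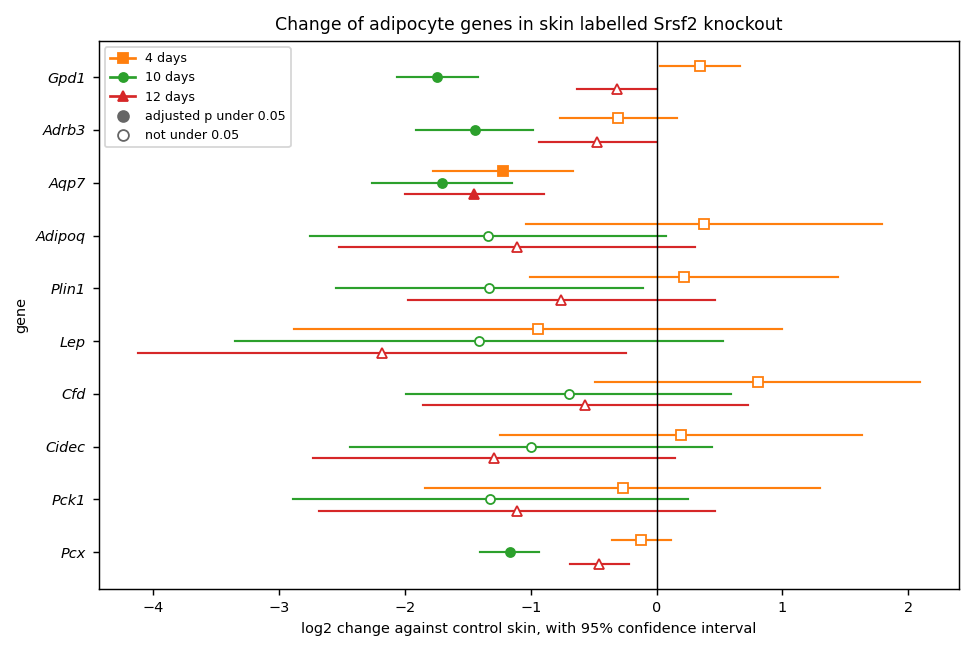
Log2 change against control skin (x axis) of each member (y axis) at 4, 10 and 12 days (symbols), with the 95% confidence interval of the limma fit as a line and filled symbols for an adjusted p under 0.05. Gpd1, Adrb3, Aqp7 and Pcx have short intervals below 0 at 10 days, and the other 6 members have intervals of 2 log2 units or more.

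Set against each other, the labelled time points differed in Gpd1, Adrb3 and Pcx and, from 4 to 10 days, in Plin1. From 4 to 10 days Gpd1 fell by 2.09 ± 0.15, Adrb3 by 1.14 ± 0.21, Pcx by 1.05 ± 0.11 and Plin1 by 1.55 ± 0.56 (SE, limma adjusted p = 3.47e-05, 0.00153, 7.20e-05 and 0.0448), where 40.3% of all genes were called and 21.4% fell. The 4-day and 10-day libraries of 9 members did not overlap, the exception being Lep, and 53.5% of all genes did not overlap either. The Plin1 call was lost without any one of the 6 libraries compared (adjusted p = 0.0655 to 0.130). Plin1 also missed on deposited values, without the filter on low values and with the replicate block. Fitting the 2 groups alone gave 8 members lower, all but Lep and Aqp7, and the all-gene share in that fit is not given here. Equal totals gave 7 members lower, where 6717 of the 19450 genes tested fell, against 4166 without that rescaling. From 10 to 12 days Gpd1 rose by 1.43 ± 0.15, Adrb3 by 0.98 ± 0.21 and Pcx by 0.71 ± 0.11 (adjusted p = 0.000194, 0.00511 and 0.000831), where 37.6% of genes were called and 19.2% rose. The groups of these 3 did not overlap, as for 50.6% of genes. On the deposited values only Gpd1 passed from 10 to 12 days, with adjusted p = 0.0550 for Adrb3 and 0.0517 for Pcx. Between 4 and 12 days limma called no member and 0.144% of all genes. Of the members 5 had an unadjusted p under 0.05. The share of all genes under that unadjusted threshold was not computed, here or in the comparisons below, so such counts have no background. Adipoq, Cfd, Cidec, Gpd1, Pcx and Plin1 did not overlap, as did 18.5% of genes.

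The members moved together in 2 sets over the 12 skin libraries. Pearson correlations of log2 levels among Adipoq, Lep, Cfd, Plin1, Cidec and Pck1 ran from 0.68 to 0.97 with a median of 0.90 over 15 pairs, and those among Gpd1, Pcx and Adrb3 from 0.80 to 0.94 over 3 pairs. Between the 2 sets the 18 correlations ran from 0.24 to 0.67. In the 14 P95H libraries the first set gave -0.08 to 0.96 (median 0.70), the second 0.21 to 0.79 (median 0.25) and the pairs between them -0.05 to 0.58 (median 0.35). By these medians the second set was no closer within itself there than with the first. These values describe libraries that share groups, scaling and tissue composition, and the sets were named after the levels were seen. Adipoq and Plin1 were the closest pair, at 0.97 over 12 libraries and 0.96 over 14.

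**Figure D3:**
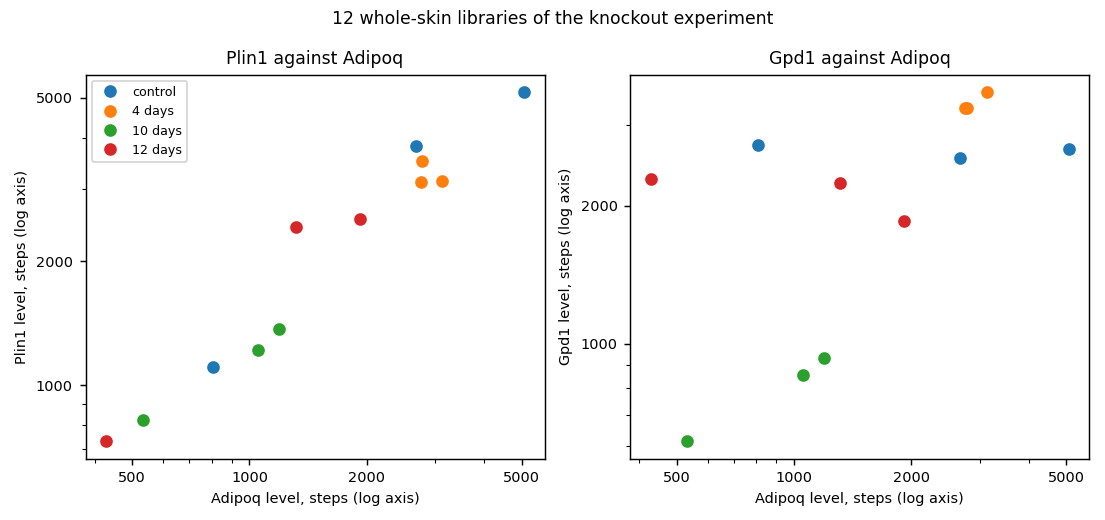
Plin1 (left) and Gpd1 (right) against Adipoq, all in steps on log axes, with 1 point for each of the 12 whole-skin libraries of the knockout experiment, coloured by group. Plin1 follows Adipoq over all groups, while Gpd1 stays at 2549 to 2710 steps in controls whose Adipoq runs from 805 to 5065 steps.

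The genes whose levels most resembled the mean of the members were Tusc5, Plin4, Cdo1, Abcd2, Aifm2, Slc7a10, Slc36a2 and Tshr, out of 12736 genes compared. Likeness is the mean of Pearson's r over the 12 knockout libraries and over the 14 P95H libraries, which was 0.92 for Tusc5, 0.91 for Plin4 and 0.86 for Tshr. Plin4 is a droplet coat protein, and it read 19086 ± 11438 steps in controls and 7817 ± 1730 at 10 days (SD, n = 3 each). Cdo1, cysteine dioxygenase, read 1054 ± 567 and 395 ± 56.6 steps.

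Genes on other lists of adipocyte function also fell at 10 days, and the cells that their RNA came from were not measured. Of 71 genes in 7 lists of adipocyte function 27 fell and 3 rose, with a median of -0.61, against 11.9% of all genes lower. The 27 became 12 without control replicate 2, the control with the most Adipoq, 14 without 10-day replicate 2 and 17 without 10-day replicate 3. In the list of fatty acid uptake and synthesis 7 of 16 fell, among them Acsl1, which activates fatty acids (-1.22, limma adjusted p = 0.00619), and the fatty acid carrier Cd36 (-1.20, 0.0173), while the binding protein Fabp5 rose by 1.75 (0.0101). Fabp4, the fat-cell fatty acid binding protein, read 6809 ± 2993 steps in controls and 4225 ± 996 at 10 days (adjusted p = 0.408). Of 12 droplet and lipolysis genes 3 fell, Plin5 (-1.80, adjusted p = 0.00451), the triglyceride lipase Pnpla2 (-0.90, 0.0339) and Pnpla3 (-0.92, 0.0407), and hormone-sensitive lipase, Lipe, had a change of -0.27 (0.589). Pnpla2 and Lipe were also present in sorted control cells, at 2402 ± 332 and 360 ± 77.7 normalised counts (SD, n = 3 each). Fabp4 stood at 0.702 ± 0.677 there.

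Insulin signalling and glucose uptake had 4 of 7 genes lower, including the insulin receptor Insr (-0.67, limma adjusted p = 0.00430) and the glucose carrier Slc2a4 (-1.30, 0.00509). Glycerolipid synthesis had 4 of 10 lower and 1 higher, with Lpin1 at -1.02 (0.00226) and glycerol kinase, Gk, at 1.21 (0.00840). Of 10 regulators of adipogenesis 4 fell and 1 rose: Mlxipl, a glucose-responsive factor, fell by 1.39 (0.00960) and Cebpb rose by 0.57 (0.0179). Pparg and Cebpa, regulators of fat-cell formation, had changes of -0.71 (0.0853) and -0.21 (0.244). Both were also present in sorted control cells, Cebpa at 25687 ± 3851 and Pparg at 302 ± 128 normalised counts (SD, n = 3 each). Their levels in fat cells were not measured. Of 8 further adipokines 3 fell, among them Nrg4 (-1.35, 0.00905) and resistin, Retn (-2.12, 0.0365), and of 8 surface receptors 2 fell, the lactate receptor Hcar1 (-1.42, 0.0233) and Adora1 (-1.97, 0.0253).

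Markers of other tissues moved with the members at 10 days. Their part in the changes of the members and of the wider fat-cell lists was not tested. Of all genes tested, 13.3% rose and 11.9% fell at this time. All 22 growing-hair genes rose, with a median of 6.64, and they took 12.9% to 16.5% of each 10-day library against 0.0211% to 0.814% of each control. The 22 became 5 without control replicate 2 or 10-day replicate 2 or 3, and 6 without 10-day replicate 1, at medians of 4.6 to 6.73. Skeletal muscle genes fell in 17 of 19 cases with a median of -1.27, and took 1.83% to 2.37% of each 10-day library against 4.46% to 9.28% of controls. The 17 became 4 without control replicate 2 and 5 without control replicate 1 or 10-day replicate 2. Endothelial genes fell in 12 of 15 cases with a median of -0.81, and in 6 without control replicate 2. Their mean log2 level was 9.19 to 9.33 per library at 10 days and 9.93 to 10.33 in controls. Fibroblast genes fell in 1 of 14 cases and macrophage genes rose in 1 of 15, and of 9 genes of fat-cell progenitors 2 fell and 1 rose, with Pdgfra at -0.08 (limma adjusted p = 0.738). The members themselves took 0.0315% to 0.0423% of each 10-day library and 0.0523% to 0.190% of each control.

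Control skin varied in the hair genes too. Their mean log2 level was 12.07, 6.97 and 11.67 in control replicates 1, 2 and 3, so the control with the most Adipoq had the least hair-gene RNA. Muscle genes did not follow this order, at 15.58, 15.26 and 14.36. The other groups were mixed in how hair genes and Adipoq went together. Replicate 2 at 4 days (9.12) and replicate 3 at 10 days (16.3) had both the most Adipoq and the most hair-gene RNA of their groups. At 12 days replicate 1 had the most Adipoq and the least hair-gene RNA. A link between hair genes and Adipoq was not tested. At 4 days 13 of 15 macrophage genes and 9 of 14 fibroblast genes rose, with medians of 1.60 and 1.16, while 1 of the 71 wider fat-cell genes fell and 1 rose. Of all genes tested, 7.21% rose and 4.12% fell at 4 days.

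In P95H skin no member passed limma's test at either time, with 1 unadjusted p under 0.05 at each. Of all genes tested, 6.93% were called at 12 days and 12.2% at 28 days. The test of the difference between both P95H effects called none of the members, with 0 unadjusted p under 0.05, and 0.0109% of all genes.

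The 2 P95H mice at 12 days lay at opposite ends of the experiment. Replicate 1 had the highest level of all 14 libraries for 6 members and replicate 2 the lowest for 7. Lep read 1890 steps in replicate 1 and 33 in replicate 2, where the 5 controls read 237, 203, 219, 339 and 722. Adipoq read 1061 and 118 steps against 526, 493, 286, 322 and 598 in controls. Plin1 read 2187 and 358 steps against 1455, 1272, 876, 896 and 1265. For all 3 the controls sat between both P95H mice. Adrb3 read 149 and 108 steps against 209, 241, 185, 167 and 137, with a change of -0.54 ± 0.21 (SE, limma adjusted p = 0.149). Replicate 1 lay inside the control range of Adrb3 and replicate 2 below it. The group mean therefore rests on a pair of unlike animals, and leaving out either leaves 1 P95H mouse, whose own spread is unknown. Without replicate 1 the changes were -1.85 for Adipoq, -1.65 for Plin1, -1.34 for Cidec and -3.16 for Lep. Without replicate 2 they were 1.31, 0.95, 1.23 and 2.63.

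**Figure D4:**
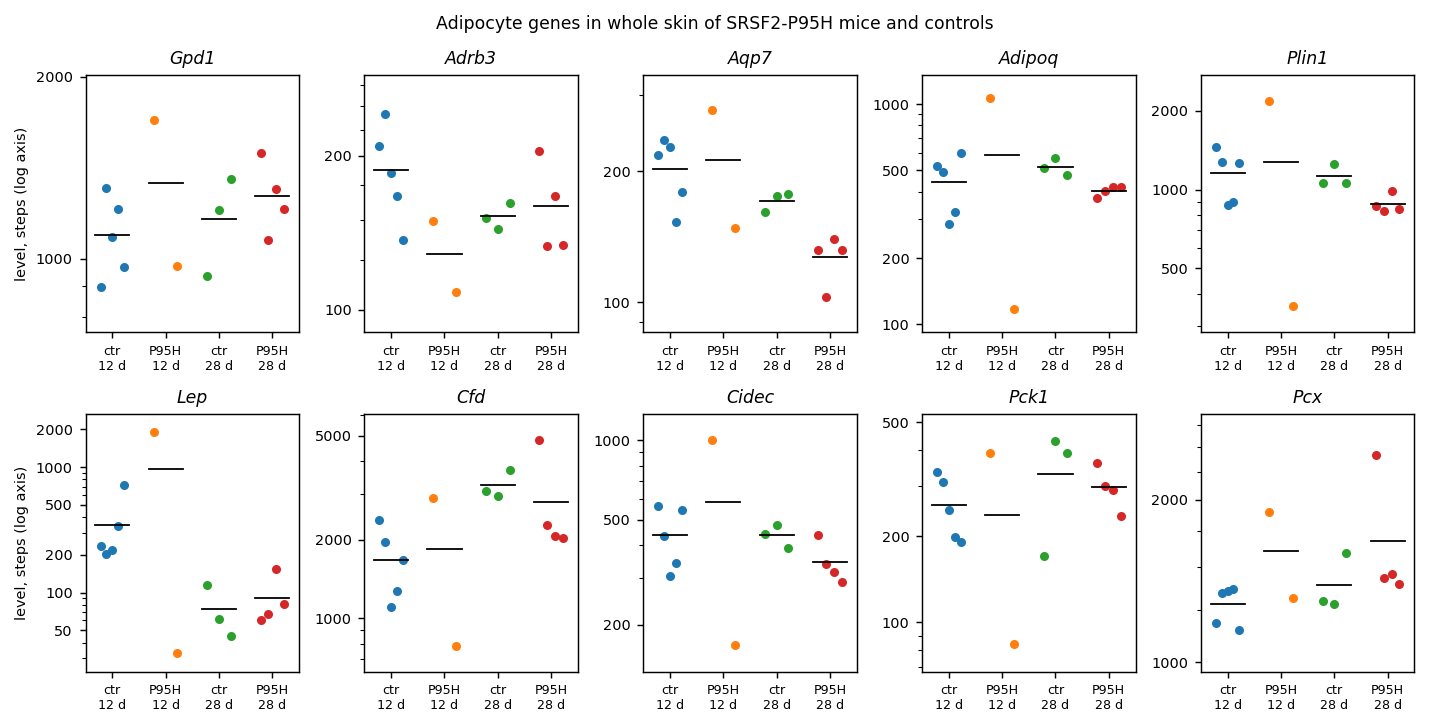
Level of each member in steps (log axis) in the 14 whole-skin libraries of the P95H experiment, by group, with replicates in number order as points and a bar at the group mean. Both P95H mice at 12 days lie far apart, with Lep at 1890 and 33 steps, and the 28-day groups lie close together for most members.

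At 28 days the groups were close. Adipoq read 373, 403, 421 and 419 steps in P95H mice and 515, 570 and 475 in controls, a change of -0.36 ± 0.49 (SE, limma adjusted p = 0.668). Aqp7 read 132, 103, 140 and 132 steps against 161, 175 and 177 (-0.44 ± 0.20, adjusted p = 0.157), and Plin1 866, 826, 986 and 844 against 1061, 1251 and 1061 (-0.35 ± 0.40, adjusted p = 0.599). These 3 members did not overlap between the groups, as did 28.6% of all genes tested. On the deposited values, which moved the median of all genes to 0.59, the 3 changes turned to 0.25, 0.17 and 0.26. The confidence intervals still held sizeable changes in both directions, from -1.41 to 0.69 for Adipoq and from -1.68 to 2.29 for Lep.

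Between control mice at 28 and 12 days limma called no member, 2 had an unadjusted p under 0.05, and 0.00546% of all genes were called. Lep read 115, 62 and 45 steps at 28 days, below all 12-day controls (-2.13 ± 0.89, adjusted p = 0.367), and Cfd 3070, 2940 and 3684 steps, above a 12-day range of 1103 to 2388 (0.99 ± 0.37, adjusted p = 0.332). These 2 members did not overlap, as did 10.8% of all genes tested. The deposited values, with the median gene at -0.82, gave Lep a change of -2.95 that passed (limma adjusted p = 2.01e-10). Over all genes 439 fell and 2 rose on those values, against 0 and 1 in steps, and Lep passed in no other fit. Limma's moderated test shares its estimate of spread over genes of like level, so this p-value does not measure the spread of Lep alone.

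In sorted reporter-positive cells most members were nearly absent, with Adrb3 and Pcx as exceptions. The 3 control libraries at 10 days held 248 M reads together, of which 3 were from Adipoq, 3 from Plin1, 3 from Cfd, 13 from Lep, 29 from Cidec and 40 from Aqp7. Pck1 had 0 reads, which allows up to 0.0121 CPM (counts per 1000000 of a library's total). Relative to control skin, in CPM, Adipoq was 8153-fold lower (95% exact Poisson interval of the reads 2790 to 39533). All 3 Adipoq reads came from sorted control replicate 1, and control skin ran from 26.7 to 175 CPM of Adipoq. By the same measure Pck1 was at least 8892-fold lower by the limit of 3 reads over the group. Gpd1 had 304 reads and stood at 1.35% of its skin level (1.21% to 1.51%). The tables were normalised separately, so these ratios set levels side by side without a test, and the intervals cover counting error only.

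Adrb3 did not share the drop. It had 2170 reads in sorted controls, 8.75 CPM, or 74.1% of the level in control skin (71.0% to 77.3%), and Pcx had 7311 reads, or 17.2% (16.8% to 17.6%). The 3 controls of the whole-skin knockout experiment, which are other libraries, held 11.8 CPM of Adrb3 and 171 CPM of Pcx. Krt14, a keratin of basal keratinocytes, stood at 6374 ± 568 CPM in the sorted controls and 2115 ± 110 CPM in control skin (SD, n = 3 each). An antisense gene, Gm45470, overlaps Adrb3 on the other strand and stood at 0.0401 CPM in sorted controls.

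**Figure D5:**
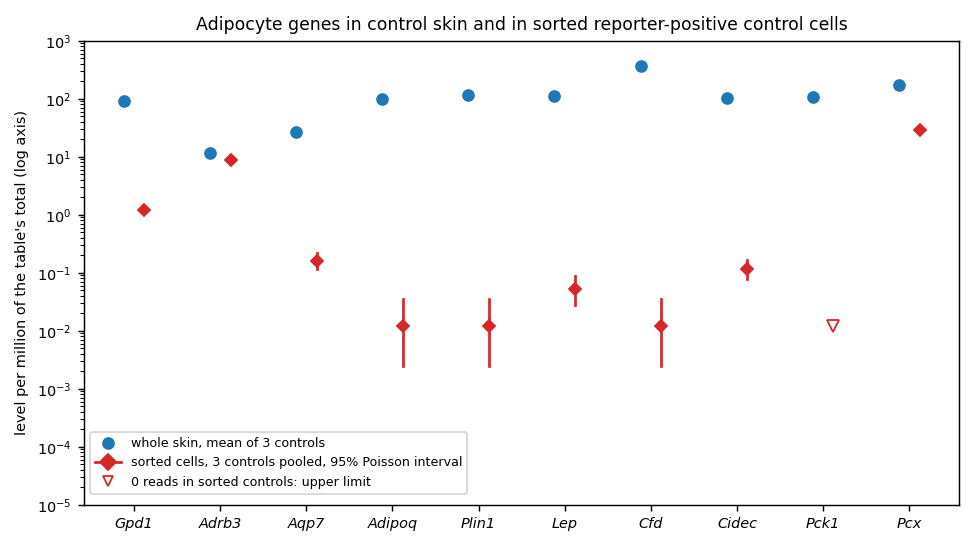
Level of each member in counts per 1000000 of a library's total (log axis) in control skin (circles, mean of 3 mice) and in sorted control cells (diamonds, 3 mice pooled, with the 95% Poisson interval; open triangle, upper limit for 0 reads). Adrb3 and Pcx lie within 10-fold of their skin level and the other 8 members lie far below it.

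Sorted SRSF2-KO cells at 10 days gave no called member. Only 4 members passed the filter on low values there, and limma and edgeR each called 0 with 1 unadjusted p under 0.05, where limma called 0.0394% of all genes. Pcx read 3062, 3236 and 2649 normalised counts in SRSF2-KO cells against 2368, 1581 and 1572 in controls. No library of one group reached the other, as for 28.6% of all genes, and the change was 0.72 ± 0.23 (SE, limma adjusted p = 0.210). Adrb3 read 141, 592 and 469 against 655, 554 and 414, with groups that overlapped (-0.64 ± 0.53, adjusted p = 0.540). Gpd1 read 122, 199 and 75.0 against 105, 73.6 and 47.9 (0.75 ± 0.48, adjusted p = 0.444), and Cidec 40.5, 3.42 and 18.1 against 15.1, 2.70 and 4.28 (1.16 ± 1.004, adjusted p = 0.560). One SRSF2-KO library, replicate 2, had a read worth 3.42 normalised counts where the others had 0.675 to 0.904, and no member passed without it either.

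After DMBA/TPA the sorted cells held 0 reads of Adipoq, Lep, Cfd and Pck1 in all 6 libraries. Only 3 members passed the filter, and limma called none of them and none of 14914 genes (0%), with 1 member under an unadjusted p of 0.05; edgeR gave the same counts for the members. Adrb3 read 122, 89.1 and 108 normalised counts in SRSF2-P95H-het cells and 63.8, 89.1 and 36.2 in controls (0.82 ± 0.30, SE, limma adjusted p = 0.237). Pcx read 518, 666 and 542 against 436, 513 and 514, without overlap, as for 21.5% of all genes (0.23 ± 0.12, adjusted p = 0.383). Gpd1 was near the filter at 3.99 to 20.4 normalised counts in controls and 10.4 to 14.6 in SRSF2-P95H-het cells (0.44 ± 0.51, adjusted p = 0.706).

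In GENCODE M21 on GRCm38 the 4 members called at 10 days lie at chr15:99717515-99725005 (Gpd1), chr19:4510472-4621752 (Pcx), chr8:27225776-27250616 (Adrb3) and chr4:41033074-41048139 (Aqp7), and all are protein coding. Gpd1 overlaps the antisense gene Gm16537 and Pcx overlaps Lrfn4 on the other strand. No source used here gives the strand setting of the counting, so reads of such pairs cannot be told apart. Gm16537 read 3 to 9 steps at 10 days and Lrfn4 555 to 930 against 335 to 434 in controls, the opposite direction to Pcx.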

How the data were processed

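Trizol-extracted RNA was sequenced from total-RNA libraries, per the labels' protocols. The submitters' processing notes name STAR, featureCounts and DESeq2; versions, genome build and strand setting: not given in the sources used here. Each table holds, as deposited by the authors, a signal: gene counts divided by a factor of the library. Every value of the sorted libraries was a whole multiple of 1 unit (tolerance 0.0001), and these multiples were used as reads. For whole skin the multiples (steps) are rescaled counts rather than reads, and were analysed instead of the deposited values.

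Per table, 1 limma 3.58.1 fit with a trend used log2(value + 1) of genes with a mean of at least 10 and 1 coefficient per group. Two-sided p-values were adjusted over all genes tested by Benjamini-Hochberg, threshold 0.05. Where leaving out a library left a lone one in its group, it was assumed to vary like the others. Intervals are 95%. edgeR 4.0.16 (quasi-likelihood) was run on the sorted reads. Python 3.11.15, pandas 2.3.3, numpy 2.4.6, matplotlib 3.10.9 and R 4.3.3 were used, and the fit was tested on simulated data. Libraries are labelled biological replicates, and p-values rest on the spread between them, moderated over genes. Alternatives were another pseudocount, filter, scaling, set of libraries in the fit, a replicate block and leaving out each library.

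The members, the lists and the naming rule (all members, up to 4 genes of a list by smallest p, Pparg, Cebpa, Fabp4, Lipe, Pnpla2 and Pdgfra, and the 8 most alike genes) were chosen with earlier results of these data known. Lrfn4, Gm16537, Gm45470 and Krt14 were added for context after values were seen. Of the listed identifiers 49326 of 49585 matched GENCODE M21, 43749 of them with the same version. No 2 libraries of a group were copies (lowest chi-square per degree of freedom 5.72). Neither a batch nor a run date was used, since no label names one.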

Additional observations from a re-analysis of the deposited data

Results flagged for a closer look

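In 20 sets of values, each 1 member in 1 group of at least 4 mice, the highest or lowest library was compared with the rest by Dixon's ratio at the 95% level, and 3 stood apart. Chance flags about 1 in 20 such sets. Lep read 722 steps in 12-day control replicate 5 of the P95H experiment, where the next control read 339. In 28-day P95H replicate 1, Cfd read 4821 steps and Pcx 2413, where the next P95H mice read 2271 and 1459. That library also had the largest step of the P95H table, 2.35 deposited units against 0.499 to 1.53 in the other libraries, and the highest total, 17.4 M steps (M, 1000000).

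Skin groups labelled knockout differed between time points in some members, as they did in 40.3% of all genes from 4 to 10 days and 37.6% from 10 to 12 days. From 4 to 10 days the log2 changes were -2.09 for Gpd1, -1.55 for Plin1, -1.14 for Adrb3 and -1.05 for Pcx. From 10 to 12 days they were 1.43 for Gpd1, 0.98 for Adrb3 and 0.71 for Pcx. The control term cancels in these differences, and the 10-day libraries are the ones whose Srsf2 was not below controls.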

How the results depend on the processing

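The number of members called moved by more than 1.5 times in few fits. Rescaling to equal totals gave 7 members from 4 to 10 days and fitting the 2 groups alone gave 8, against 4. With equal totals 6717 of all genes fell there, against 4166 without that rescaling. Deposited values gave 1 from 10 to 12 days, against 3, and 1 between 28-day and 12-day controls, against 0. Fitting the 2 groups alone gave 0 at 12 days, against 1. Leaving out 1 library at a time gave 4 to 8 members at 10 days, 0 to 1 at 4 and at 12 days, 3 from 4 to 10 and from 10 to 12 days, and 0 in the other comparisons. P95H skin at 12 days is left aside in these counts, since leaving out a P95H mouse there leaves 1 in its group. Chosen after seeing the data, the same was done for lists: 12 to 30 wider fat-cell genes and 1 to 5 thermogenic genes fell at 10 days, and 8 to 19 wider and 2 to 8 sebaceous genes rose in P95H skin at 12 days. Of the members' changes given in the text, those that turned their sign were, without control replicate 1 at 4 days, Adipoq (-0.35), Cidec (-0.61) and Plin1 (-0.45); Pck1 at 4 days without control replicate 2 (0.33) or 4-day replicate 2 (0.12); Cfd at 12 days without control replicate 2 (0.03); Gpd1 after DMBA/TPA without control replicate 1 (-0.07); and Adipoq (0.25), Aqp7 (0.17) and Plin1 (0.26) in P95H skin at 28 days on deposited values. None of these passed either way. In P95H skin at 12 days, leaving out P95H replicate 2 turned Adipoq (1.31), Cidec (1.23), Lep (2.63) and Plin1 (0.95), against ranges down to -1.85, -1.34, -3.16 and -1.65 without replicate 1. Cidec also turned without control replicate 1 (0.05) or 5 (0.03), and Lep without control replicate 5 (0.05) and with the replicate block (0.17). Leaving out 1 library gave ranges of -0.35 to 0.97 for Adipoq, -0.61 to 0.77 for Cidec, -0.45 to 0.66 for Plin1 and -1.14 to 0.33 for Pck1 at 4 days, -1.29 to 0.03 for Cfd at 12 days and -0.07 to 0.99 for Gpd1 after DMBA/TPA. A pseudocount of 10 and no filter on low values left every count of members within 1.5 times. A count of 0 could hide changes that 2 to 5 mice per group cannot resolve. Over all genes, the calls at 10 days, 2320 lower and 2593 higher, became 6806 and 1212 with equal totals and 551 and 3389 on deposited values.

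Libraries with the same replicate number deviated together in some pairs and not in others. Correlations of their deviations ran from -0.458 to 0.840 in knockout skin, the highest between control and 4-day replicate 3. They ran from -0.189 to 0.367 in P95H skin, 0.058 to 0.190 in sorted knockout cells and 0.056 to 0.150 after DMBA/TPA. Because the sign varied between pairs in skin, the numbers are not taken to pair the mice. With the replicate number as a block, 4 members were called at 10 days and 3 from 4 to 10 days, where Plin1 missed (adjusted p = 0.0647), and no other call of a member changed.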

Other observations

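In P95H skin at 12 days 15 of 70 wider fat-cell genes rose, none fell and the others did not pass limma's test, where 6.93% of all genes were called and 3.96% rose. The median change of the list was 0.24, and it was 0.04 without P95H replicate 1 and 0.54 without replicate 2, fits that each leave 1 P95H mouse. No test compared this list with the members. Among the 15 that rose were the droplet protein Plin2 (1.04, limma adjusted p = 0.000998), seipin, Bscl2 (0.71, 0.000292), the citrate carrier Slc25a1 (0.90, 0.000977), stearoyl-CoA desaturase, Scd1 (0.91, 0.00585), and Pparg (0.71, 0.0306). Markers of the sebaceous gland, another lipid-making cell type of skin, rose in 8 of 12 cases with a median of 1.10, for example Fa2h (1.31, 0.00123) and Elovl4 (1.10, 0.00513). That median was 1.08 without P95H replicate 1 and 1.05 without replicate 2. Their part in the lipid genes was not tested.

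Thermogenic fat-cell genes fell in 4 of 7 cases at 10 days in skin labelled knockout, with Cox7a1 at -1.25 (limma adjusted p = 0.00953), Cox8b at -1.19 (0.0177), Prdm16 at -0.90 (0.0111) and Kcnk3 at -1.57 (0.0165), against 11.9% of all genes lower. The count was 1 without control replicate 2 and 2 without 10-day replicate 2. Cox7a1 and Cox8b are also made in muscle, whose genes fell in 17 of 19 cases, or 4 without control replicate 2.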
